A study of Mus musculus with 6 samples.

Results

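The 10 genes described here, Dpt, Mfap5, Apod, Gpx3, Islr, Msln, Rarres1, Pdgfra, Thy1 and Ly6a, are marker genes of fibroblasts, other stromal cells and mesothelium. They were taken by gene name from the 11754 protein-coding genes of the deposited gene table, and all 10 were found. They were selected on their FPKM in BMP4-treated against untreated 2H11 cells, as markers that go different ways, so their levels and differences are given as a description, with no test. The labels describe 2H11, a mouse cell line of the C3H/HeJ strain, as endothelial and trace it to axillary lymph node and vascular epithelium. One group was starved and kept untreated, and the other was starved and given BMP4, a secreted bone morphogenetic protein, for 48 h. Each group had 3 samples, and the starvation and the line are shared by both groups.

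Fibroblasts build and maintain the collagen-rich matrix of connective tissue. A population found in many mouse organs, called universal or adventitial, is known by dermatopontin, Cd34 and Sca-1. Mesothelium is the flat cell layer that lines the body cavities, known by the surface protein mesothelin, and it shares many genes with fibroblasts. BMP ligands act through receptor kinases and the transcription factors SMAD1, SMAD5 and SMAD9, and steer mesenchymal cells towards different fates.

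The measurement was FPKM, fragments per kilobase of transcript relative to the size of the library. It puts genes of different length on 1 scale, but the deposited gene value can differ from the sum of the listed transcripts. For Pdgfra these were 18.1 and 34.0 FPKM in untreated cells, so orders between genes depend on which is used. Summed over genes, FPKM ranged from 256997 to 273562 without BMP4 and from 252329 to 264273 with it. The number of reads behind each value is unknown, so no counting interval is given. Across genes, log2(FPKM + 1) correlated at r = 0.988 to 0.993 within groups and 0.964 to 0.970 between groups. Whether the 3 replicates of a group are separate cultures is not in the labels. A p-value here therefore reflects the spread among these 6 samples alone, and that spread may be technical. In bulk RNA, fewer cells of a type and less RNA per cell cannot be told apart.

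The label of the line and that of the genes were checked against markers. Of 25 general fibroblast markers 24 were listed, and the 21 outside the 10 genes summed to 5707 to 5939 FPKM in untreated cells and 4708 to 4910 with BMP4. Of 30 mesothelial markers 18 were listed, among them the transcription factor genes Gata4 and Gata6 at 5.43 ± 0.490 and 4.05 ± 0.429 FPKM (SD, n = 3) in untreated cells, while Wt1, Calb2, Muc16 and the keratin genes Krt7, Krt8 and Krt18 were not analysed here. Of 24 endothelial markers 7 were listed, and Pecam1, Cdh5, Kdr, Tek and Vwf were among the 17 not analysed here. The gene table thus held nearly all of the fibroblast list, part of the mesothelial list and little of the endothelial list.

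With BMP4 every sample lay above every untreated sample for Rarres1, Islr, Gpx3, Mfap5, Pdgfra and Thy1, and below every untreated sample for Dpt, Msln and Apod. Of all 10932 tested genes (mean of at least 1 FPKM), 22.4% were likewise higher without overlap and 23.1% lower, together 45.5%. Nothing is read from the 6 and 3 genes against that share, since this contrast chose them. The groups overlapped for Ly6a alone. The 10 genes thus hold 3 patterns: means at least 5.97-fold lower, means from 1.36-fold to 9.78-fold higher, and 1 gene with no separation. On the log2(FPKM + 1) scale Msln had the 2nd lowest difference of all tested genes, Dpt the 6th and Apod the 8th, while Rarres1 stood 12th from the top and Islr 37th. Thy1, at rank 716 from the top, had the smallest difference among the 6 higher genes.

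**Figure D1:**
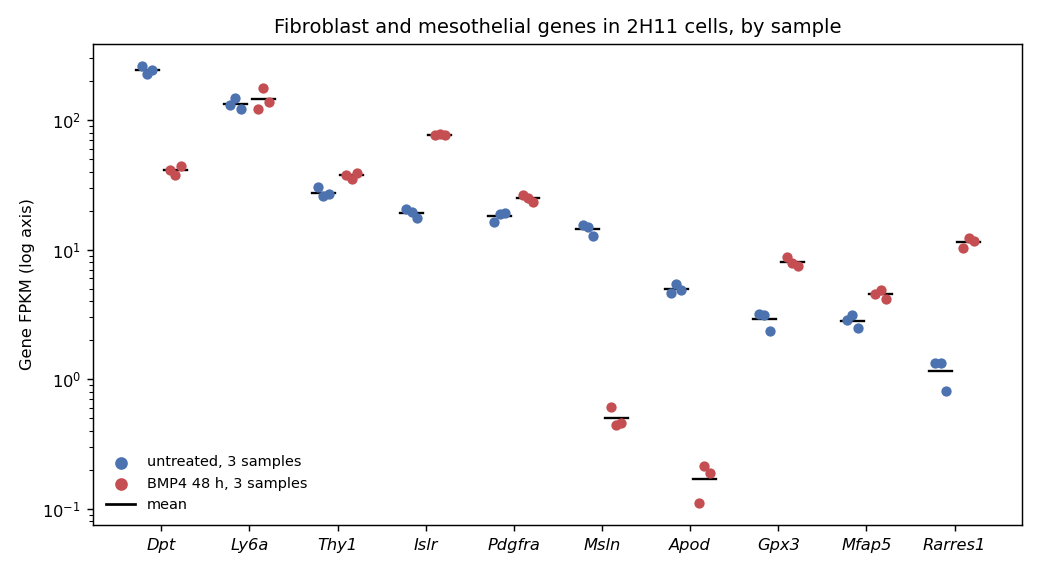
Gene FPKM of each sample on a log axis, untreated in blue and BMP4 in red, with the mean of 3 samples as a black line; genes are ordered by their untreated mean. Msln and Apod lie near or below 0.6 FPKM with BMP4, Rarres1 moves from 1.17 to 11.4 FPKM, and the points of Ly6a overlap.

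**Figure D2:**
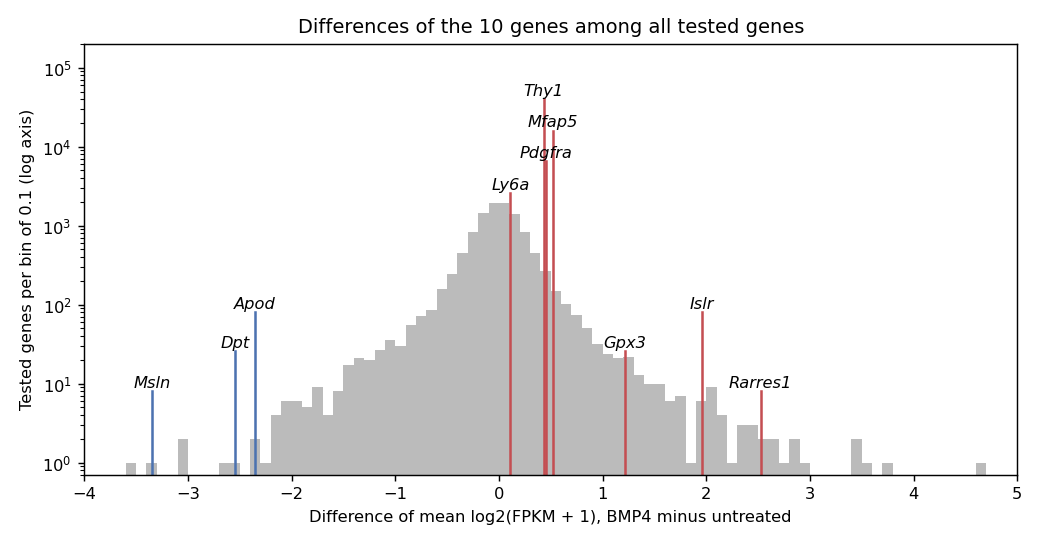
Histogram (grey, log axis) of the difference of mean log2(FPKM + 1), BMP4 minus untreated, of the 10932 tested genes in bins of 0.1, with the 10 genes marked, blue where lower and red where higher with BMP4. Msln, Dpt and Apod lie in the sparse lower tail, Islr and Rarres1 in the upper tail, Mfap5, Pdgfra and Thy1 at ranks 523, 667 and 716 from the top, and Ly6a at rank 3354.

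The starts of the 4 genes with the largest differences that have a promoter in the RefSeq table (build GRCm38.p6) are shown so that genes lower and higher with BMP4 can be set side by side. Each runs from 250 bases before to 50 bases after the RefSeq start, 5′ to 3′ on the strand of the gene, with GGCGCC, a palindrome known from BMP-SMAD response elements, and TATAAA in capitals where either occurs. Dpt is at chr1:164796413-164796712 (plus strand), Apod at chr16:31314759-31315058 (minus), Islr at chr9:58158505-58158804 (minus) and Rarres1 at chr3:67515474-67515773 (minus).
Dpt: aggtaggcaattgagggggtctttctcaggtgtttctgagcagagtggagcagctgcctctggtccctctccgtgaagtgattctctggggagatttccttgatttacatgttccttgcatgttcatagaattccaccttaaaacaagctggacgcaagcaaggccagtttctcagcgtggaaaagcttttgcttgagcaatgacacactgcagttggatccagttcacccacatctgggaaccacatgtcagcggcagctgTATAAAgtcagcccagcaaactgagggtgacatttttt
Apod: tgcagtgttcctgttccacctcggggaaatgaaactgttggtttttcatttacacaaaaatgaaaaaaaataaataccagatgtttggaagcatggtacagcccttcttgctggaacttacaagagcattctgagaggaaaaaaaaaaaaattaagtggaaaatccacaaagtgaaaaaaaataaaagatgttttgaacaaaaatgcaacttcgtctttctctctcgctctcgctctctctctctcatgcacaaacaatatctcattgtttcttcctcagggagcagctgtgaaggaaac
Islr: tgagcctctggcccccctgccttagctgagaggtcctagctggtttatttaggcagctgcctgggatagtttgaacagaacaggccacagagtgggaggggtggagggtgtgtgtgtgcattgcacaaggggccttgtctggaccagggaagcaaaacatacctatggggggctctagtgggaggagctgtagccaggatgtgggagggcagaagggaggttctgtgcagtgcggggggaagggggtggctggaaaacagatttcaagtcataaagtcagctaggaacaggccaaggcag
Rarres1: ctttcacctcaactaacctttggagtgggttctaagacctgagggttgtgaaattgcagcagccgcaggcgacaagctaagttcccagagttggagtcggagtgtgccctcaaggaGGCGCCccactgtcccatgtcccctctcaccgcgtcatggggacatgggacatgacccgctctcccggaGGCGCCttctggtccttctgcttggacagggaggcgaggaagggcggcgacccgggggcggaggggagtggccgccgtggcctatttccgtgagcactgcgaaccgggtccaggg
Of the 10 genes 6 had a promoter in that table, these and those of Gpx3 and Pdgfra; Msln, Mfap5, Ly6a and Thy1 did not. GGCGCC occurred in the promoter of Rarres1, 2 times, 134 and 65 bases before the start, and in none of the other 5. Among 32544 promoters of the same length 11.9% held GGCGCC and 2.06% held it 2 times or more. TATAAA, searched on both strands like all motifs, occurred in the Dpt window, 12 bases after the RefSeq start, and in 13.6% of all promoters. The deposited Dpt transcript starts 19 bases before that RefSeq start, so this TATAAA lies after both starts. GTCT, the short SMAD-binding motif, was present 1 to 3 times in each of the 6 windows and in 88.0% of all promoters. CAGCTG occurred 2 times for Dpt, 1 time each for Apod and Islr, and in 16.4% of all promoters. The core of the interferon-stimulated response element and GTCTAGAC, which contains GTCT, were in none of the 6 windows and in 3.45% and 0.215% of all promoters. The Rarres1 window had 19 CpG dinucleotides and 63.3% G and C, against medians of 7 and 53.0% over all promoters. Islr had 1 CpG and Apod 37.3% G and C, lower than in most promoters: 5.36% of promoters had fewer CpG than Islr and 6.11% a lower G and C content than Apod. A match of letters is a description and not a binding site, and these motifs were chosen with the sequences in view.

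Among the matrix genes, Dpt (chromosome 1, 164796644 to 164824266, GRCm38) encodes dermatopontin, a small matrix protein that binds decorin and aids collagen fibril formation. Its level was 262, 228 and 244 FPKM in the untreated samples and 41.4, 37.6 and 44.3 with BMP4. Dpt was thus the highest of the 10 genes in untreated cells, 115th of all listed genes by mean level, and stood at rank 1212 with BMP4. The mean was 5.97-fold lower, from 245 ± 17.0 to 41.1 ± 3.37 FPKM, and the lowest untreated sample was 5.16 times the highest BMP4 sample. Proteins known to act with dermatopontin did not share 1 direction. Of the 8 other genes of that list, all tested, 4 rose and 3 fell by limma. Over all tested genes 13.6% rose and 14.3% fell, the shares beside which this and the later family counts stand. Decorin (Dcn) fell from 467 ± 22.1 to 214 ± 11.4 FPKM (limma adjusted p = 2.01e-05), whereas the related proteoglycan gene Bgn (biglycan) rose from 73.3 ± 2.87 to 116 ± 4.41 (limma adjusted p = 0.000102). Fibronectin (Fn1) rose 1.68-fold to 637 ± 49.3 FPKM (limma adjusted p = 0.000805).

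Mfap5 (chromosome 6, 122505845 to 122529290) encodes a glycoprotein of the fibrillin microfibrils and, like Dpt, marks adventitial fibroblasts. Untreated samples had 2.89, 3.14 and 2.51 FPKM and BMP4 samples 4.55, 4.85 and 4.14, so the pair of adventitial matrix genes went opposite ways. The ratio of means was 1.59, and the lowest BMP4 sample was 1.32 times the highest untreated one. Most of it came from transcript Mfap5-001, at 5.31 ± 0.455 and 8.86 ± 0.690 FPKM. The deposited gene value is below that of this transcript. Of the microfibril genes, fibrillin 1 (Fbn1), the main fibrillin of the list by level, fell from 107 ± 12.5 to 47.9 ± 4.39 FPKM (limma adjusted p = 0.000231). It was the 1 gene that fell among the 5 others tested, and 0 rose. Mfap2, the closest relative of Mfap5, was at 27.3 ± 2.16 and 29.0 ± 1.62 FPKM (limma adjusted p = 0.415). Mfap3 was at 5.85, 2.72 and 12.7 FPKM with BMP4 and did not pass (limma adjusted p = 0.252, and 0.0441 without BMP4 replicate 2).

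Of the secreted carriers and enzymes, Apod (chromosome 16, 31296192 to 31314808) encodes apolipoprotein D, a lipocalin that binds small lipids such as arachidonic acid. Untreated samples had 4.62, 5.48 and 4.86 FPKM, and BMP4 samples 0.111, 0.215 and 0.188. The mean was 29.1-fold lower, which left Apod at rank 11719 of 11754 listed genes. Genes low in both groups are not listed, and Apod is listed only through its untreated level, so nothing is read from this low rank. Because the BMP4 level is close to 0, the log2 difference depends on the pseudocount, at -2.35 with 1 and -4.25 with 0.1. Both listed transcripts were lower: Apod-001 went from 3.05 ± 0.256 to 0.122 ± 0.0716 FPKM, and Apod-002 was at 0.570, 2.24 and 1.63 FPKM in untreated samples and listed at 0 in 2 of the 3 BMP4 samples. C8g, the other listed lipocalin of 7, was below the mean of 1 FPKM set for testing.

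Gpx3 (chromosome 11, 54902453 to 54910377) encodes the secreted glutathione peroxidase of plasma, a selenoprotein that reduces peroxides. Untreated cells had 3.21, 3.12 and 2.38 FPKM, and BMP4 samples 8.80, 7.85 and 7.47, a 2.77-fold higher mean with no overlap. Of the 4 other tested glutathione peroxidase genes 0 passed by limma, although Gpx4 did under some alternatives. The abundant Gpx4, which protects membrane lipids, was at 173 ± 12.9 and 150 ± 9.15 FPKM (limma adjusted p = 0.0748). It had 0.0462 without untreated replicate 3, 0.0352 after rescaling to equal sums and 0.0468 with trimmed-mean scaling. Gpx1 was at 41.6, 45.1 and 17.6 FPKM in the BMP4 samples, replicate 3 being the lowest, and did not pass (limma adjusted p = 0.233).

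Islr (chromosome 9, 58156265 to 58159221) encodes a protein with leucine-rich repeats and an immunoglobulin domain, also called meflin, that marks mesenchymal stromal cells and fibroblasts. It went from 20.5, 19.6 and 17.4 FPKM to 76.3, 77.6 and 77.4, a 4.02-fold higher mean. The BMP4 samples lay closer together than those of any other of the 10 genes, with a coefficient of variation of 0.932% against 8.20% in untreated cells. With BMP4 it was the 538th gene by level, from rank 2961, and took the place above Dpt. Its 2 listed transcripts start at different sites and both were higher. Islr-202, whose start is the RefSeq start of the promoter printed above, went from 6.76 ± 1.93 to 39.8 ± 1.14 FPKM, and the longer Islr-201 from 13.9 ± 1.59 to 44.1 ± 0.945. The share of Islr-202 was 29.1%, 41.5% and 26.8% of the listed transcripts without and 47.0%, 46.6% and 48.8% with BMP4. Division of reads between transcripts that share most exons is an estimate, and its error is not in the file. Of 3 other tested genes with immunoglobulin and leucine-rich repeats, Lrig3 rose to 13.4 ± 0.934 FPKM (limma adjusted p = 0.00425) and Lrig1, a brake on receptor tyrosine kinases, fell from 11.9 ± 1.36 to 3.44 ± 0.0859 (limma adjusted p = 2.48e-05).

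The mesothelial pair parted. Msln (chromosome 17, 25748614 to 25754327) encodes mesothelin, a surface protein of mesothelial cells that binds the mucin Muc16. It was at 15.4, 14.9 and 12.7 FPKM in untreated samples and at 0.611, 0.444 and 0.464 FPKM with BMP4, 28.3-fold lower, all from its 1 listed transcript. Rarres1 (chromosome 3, 67478972 to 67515523), a membrane protein gene named for its response to a synthetic retinoid in human skin, ran the other way. It was at 1.34, 1.35 and 0.819 FPKM untreated and at 10.3, 12.3 and 11.6 FPKM with BMP4, so that its mean was 9.78-fold higher and the lowest BMP4 sample 7.67 times the highest untreated one. In untreated cells Msln stood above Rarres1 by level and with BMP4 below it, in all samples.

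Latexin (Lxn), the close relative of Rarres1 and an inhibitor of carboxypeptidases, lies 15.0 kb away on the same strand, at 67457998 to 67463926. Lxn rose from 61.0 ± 4.59 to 240 ± 16.2 FPKM (log2 difference 1.96, SE 0.072, limma adjusted p = 3.75e-06), 3.93-fold. It lies within the bounds of Gfm1 on the opposite strand, and the sources used here do not say whether counting used strand. Gfm1 itself was at 14.7 FPKM without and 13.2 with BMP4 and did not pass (limma adjusted p = 0.0900). Among 8 other tested genes of latexin and retinoid handling, 4 rose and 2 fell. Of the 2, Tgm2, a transglutaminase gene known to respond to retinoic acid, fell from 23.2 ± 0.640 to 7.79 ± 0.591 FPKM (limma adjusted p = 7.65e-06). The other was Crabp2, a retinoic acid-binding protein gene, at 2.99 ± 0.350 FPKM without and 0.468 ± 0.0960 with BMP4. The BMP4 mean of Crabp2 was under 0.502 FPKM, the lowest value that the higher group mean took among listed genes. Crabp2 is therefore listed only through its untreated level, and nothing is read from its direction. Dhrs3, which turns retinal back into retinol, and the receptor gene Rarg rose 1.81-fold and 1.25-fold (limma adjusted p = 0.00745 and 0.00554).

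The surface markers of stromal cells differed least. Pdgfra (chromosome 5, 75152292 to 75198215), the receptor tyrosine kinase by which fibroblasts are often sorted, measured 16.4, 18.9 and 19.1 FPKM without BMP4 and 26.5, 25.3 and 23.5 with it. The ratio of means was 1.38 and the groups did not overlap. Transcript Pdgfra-006 carried most of it, 69.7% ± 6.10 of the listed transcripts without and 71.3% ± 0.340 with BMP4 (SD, n = 3). In GENCODE M21 its exons overlap Gm42802 and Gm42803 on the opposite strand, whose reads cannot be told apart from its own without strand, and Mir7025 on the same strand. Its partner receptor gene Pdgfrb rose from 29.7 ± 0.0872 to 44.6 ± 1.54 FPKM (limma adjusted p = 0.000107), and the receptor-like gene Pdgfrl 1.64-fold to 30.8 ± 1.35 (limma adjusted p = 0.00115). Of 4 other tested genes of the family 3 rose and 0 fell, beside 13.6% and 14.3% of all tested genes. The third was the ligand gene Pdgfc, at 2.62 ± 0.363 and 3.53 ± 0.184 FPKM (limma adjusted p = 0.0318), whose call was lost without untreated replicate 1 or 3 (0.0650 and 0.0686) or BMP4 replicate 1, 2 or 3 (0.0749, 0.0801 and 0.0894). The ligand gene Pdgfa was at 4.74 ± 0.451 and 3.82 ± 0.354 FPKM (limma adjusted p = 0.0702).

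Thy1 (chromosome 9, 44043384 to 44048579) encodes a lipid-anchored surface protein of fibroblasts and, in mice, of T cells. Untreated samples had 30.4, 25.8 and 26.7 FPKM and BMP4 samples 37.9, 35.3 and 39.3, a 1.36-fold higher mean. The gap was the narrowest of the 9 genes with separate groups, the lowest BMP4 sample being 1.16 times the highest untreated one.

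Ly6a (chromosome 15, 74994877 to 74998031) encodes Sca-1, a lipid-anchored protein of stem, stromal and endothelial cells in mice that interferon is known to induce. It was at 131, 149 and 121 FPKM in untreated samples and at 122, 177 and 139 with BMP4, means of 134 ± 13.8 and 146 ± 28.2. The groups overlapped, although BMP4 replicate 2 lay above all untreated samples, and without BMP4 replicate 2 the log2 difference of 0.11 was -0.04. It was the 2nd highest of the 10 genes in untreated cells and the highest with BMP4. Its 6 listed transcripts were divided very differently between replicates of 1 group: Ly6a-004 was at 63.6, 155 and 46.6 FPKM in the untreated samples and at 91.6, 210 and 167 with BMP4. Transcript Ly6a-201 was at 38.2, 2.82 and 13.5 FPKM in untreated samples and at 2.87, 2.21 and 1.80 with BMP4. Both transcripts overlapped between the groups. Ly6a-003, at 13.003, 12.5 and 13.9 FPKM without and 6.27, 8.28 and 9.62 with BMP4, did not overlap, and nor did Ly6a-001, at 22.7, 3.19 and 37.4 against 0.988, 1.301 and 2.32. Ly6 genes are close paralogs, and the strain of the line differs from that of the reference genome, so the split of their reads is uncertain.

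**Figure D3:**
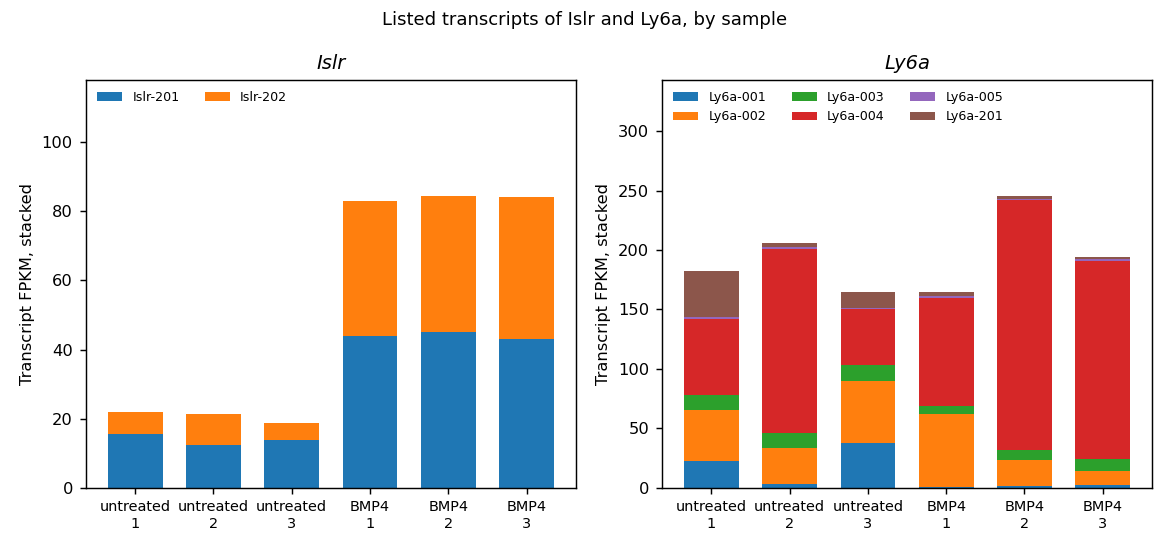
Stacked FPKM of the listed transcripts of Islr (left) and Ly6a (right) in each of the 6 samples, 1 colour per transcript; stack heights are sums of transcript FPKM and not the deposited gene FPKM. Both Islr transcripts are higher in all BMP4 samples, while the makeup of Ly6a changes between replicates of the same group.

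The neighbours of Ly6a showed that the family did not move as 1 block. Ly6e, 35.0 kb away and also known to respond to interferon, fell from 174 ± 10.1 to 93.2 ± 7.01 FPKM (limma adjusted p = 0.000110). Ly6c1, 46.0 kb to the other side, was at 36.6 ± 1.52 and 33.8 ± 3.65 FPKM (limma adjusted p = 0.321). Ly6d rose from 0.540 ± 0.194 to 2.67 ± 0.297 FPKM (limma adjusted p = 0.000225), while Ly6c2 and Lynx1 did not pass (limma adjusted p = 0.283 and 0.410). In all, 1 of the 7 other tested genes of the family rose and 1 fell.

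The order of the 10 genes by level was Dpt, Ly6a, Thy1, Islr, Pdgfra, Msln, Apod, Gpx3, Mfap5 and Rarres1 in untreated cells. The sample ranges of neighbours in that order overlapped for Islr with Pdgfra and for Gpx3 with Mfap5, and were apart for the others. With BMP4 the order was Ly6a, Islr, Dpt, Thy1, Pdgfra, Rarres1, Gpx3, Mfap5, Msln and Apod, and the ranges of Dpt and Thy1 overlapped. Rarres1 thus passed from the last place to the 6th, while Thy1 stayed above Pdgfra and Gpx3 above Mfap5 by mean gene FPKM in both groups. Both relations turned with the sum of listed transcripts in place of the gene value. By that sum Pdgfra was at 34.0 FPKM without and 46.3 with BMP4, and Thy1 at 27.6 and 37.5. Mfap5 was at 7.12 and 9.66 and Gpx3 at 3.30 and 9.14.

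The genes around the 10 were then examined, in a window of 100 kb chosen after values were seen. Of 33 other tested genes there, 3 rose and 7 fell, against 13.6% and 14.3% of all tested genes; the 7 became 3 without BMP4 replicate 1 and 4 without BMP4 replicate 2. Lxn was the gene with the largest difference among them. Msln had 14 tested neighbours, of which 1 rose and 1 fell, and Dpt and Pdgfra had none.

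Other markers of the same cells were compared between the groups with limma's moderated test across all 10932 tested genes, of which 27.9% passed at an adjusted p under 0.05, 13.6% higher and 14.3% lower with BMP4. The lists were chosen with earlier results of these data known, so their counts are given as a description. Universal and adventitial fibroblast markers fell more often than they rose. Of 12 tested genes outside the 10, 8 fell and 1 rose, with a median log2 difference of -1.0 where that of all tested genes was -0.0013. Col14a1, a fibril-associated collagen gene, fell 5.01-fold from 12.1 ± 0.753 to 2.40 ± 0.286 FPKM (log2 difference -1.94, SE 0.084, limma adjusted p = 7.47e-06). Clec3b (tetranectin) fell from 64.0 ± 5.44 to 16.6 ± 2.86 FPKM, and the guidance cue gene Sema3c from 37.0 ± 2.42 to 9.996 ± 0.183 (limma adjusted p = 3.86e-05 and 2.35e-06). Cd34, Cd248, Tnxb, Fbn1 and Procr fell between 1.29-fold and 2.53-fold (limma adjusted p from 1.42e-05 to 0.00832). Anxa3, an annexin gene, rose from 44.8 ± 1.81 to 71.0 ± 4.87 FPKM (limma adjusted p = 0.000302). Pi16, at 0.959 ± 0.0899 and 1.15 ± 0.205 FPKM, Ackr3 and Ly6c1 did not pass (limma adjusted p = 0.305, 0.886 and 0.321). Beside these, the 5 of the 10 genes that belong to this list were split, Dpt and Apod lower, Gpx3 and Mfap5 higher and Ly6a overlapping.

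General fibroblast markers also fell more often, 11 of 21 tested genes against 5 that rose, with a median log2 difference of -0.19. The fibrillar collagen gene Col3a1 fell 3.79-fold, 746 ± 4.82 FPKM becoming 197 ± 3.35 (log2 difference -1.92, SE 0.043, limma adjusted p = 6.94e-07), and Fbln2 fell from 107 ± 5.51 to 63.5 ± 1.54 (limma adjusted p = 6.05e-05). Serpinf1, which encodes the secreted factor PEDF, rose from 148 ± 6.22 to 278 ± 5.74 FPKM (limma adjusted p = 2.01e-05). Without untreated replicate 2 or BMP4 replicate 1 or 2 the number that rose was 3, as the calls of S100a4 (limma adjusted p = 0.116, 0.0903 and 0.0508) and Col5a2 (0.0961, 0.132 and 0.106) were lost. Islr, Pdgfra and Thy1, the 3 of the 10 genes in this list, were all on the higher side.

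Mesothelial markers fell in 6 and rose in 2 of 12 tested genes outside the pair, with a median log2 difference of -0.43. Cldn15, a tight junction gene, fell 19.7-fold, from 12.0 ± 1.08 to 0.609 ± 0.209 FPKM (log2 difference -3.02, SE 0.115, limma adjusted p = 4.15e-06). Igfbp6 fell from 234 ± 22.4 to 111 ± 9.24 FPKM, ezrin (Ezr), which links the membrane to actin in microvilli, from 45.1 ± 1.44 to 22.8 ± 0.752, and podoplanin (Pdpn) from 97.4 ± 4.51 to 63.3 ± 2.61 (limma adjusted p = 0.000145, 1.49e-05 and 0.000197). Nkain4 and Efemp1 fell 2.86-fold and 1.80-fold (limma adjusted p = 0.000401 and 0.000158). Slpi, a protease inhibitor gene and 1 of the 2, was at 0.255 ± 0.142 FPKM without and 1.78 ± 0.659 with BMP4. Its untreated mean was under 0.502 FPKM, the lowest value that the higher group mean took among listed genes. Slpi is therefore listed only through its BMP4 level, and nothing is read from its direction. Without any 1 of BMP4 replicates 1, 2 and 3 its mean was under the 1 FPKM set for testing, and the number that rose was 1. The chaperone gene Hspb1 rose 1.45-fold (limma adjusted p = 0.00432). Gata4, Gata6, Sulf1 and Rarres2 did not pass (limma adjusted p = 0.622, 0.137, 0.0564 and 0.126; Sulf1 had 0.0423 without untreated replicate 1 and Rarres2 0.0400 without BMP4 replicate 2). Of the 4 listed mesothelial markers too low to test, Krt19 overlapped between the groups, at 0.657, 0.841 and 0.741 FPKM without and 0.690, 0.892 and 0.352 with BMP4. The other 3 were lower in every BMP4 sample. Their BMP4 means were under 0.502 FPKM, the lowest value that the higher group mean took among listed genes. They are therefore listed only through their untreated level, and nothing is read from their direction. Bnc1 had means of 1.24 ± 0.115 and 0.416 ± 0.0474 FPKM, Upk3b was at 1.02, 0.924 and 0.774 FPKM without and at 0.1596, 0.0793 and 0.0740 with BMP4, and Lrrn4 was at 0.434, 0.479 and 0.655 FPKM without and listed at 0 in 1 BMP4 sample.

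**Figure D4:**
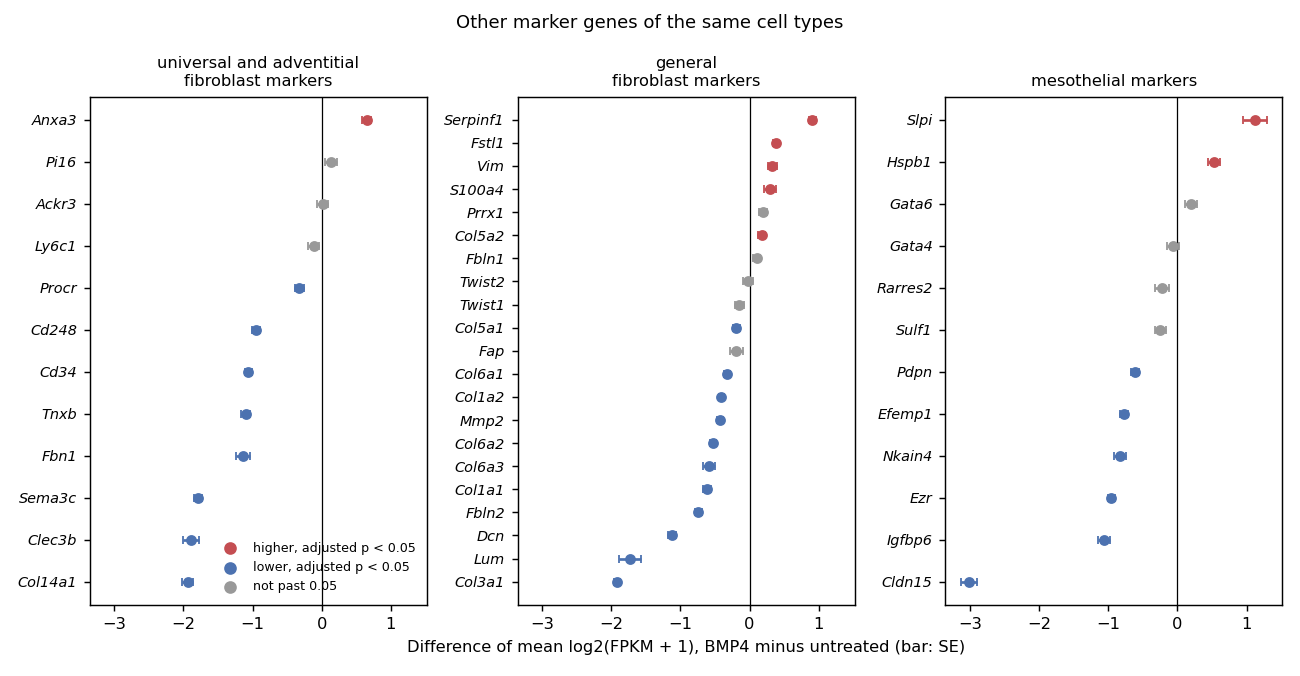
Difference of mean log2(FPKM + 1), BMP4 minus untreated, with its SE from limma as a bar, for the tested markers other than the 10 genes in 3 lists; blue is lower and red higher at an adjusted p under 0.05, grey did not pass. In the left panel 8 of 12 genes are blue, in the middle 11 of 21 and in the right 6 of 12, where Cldn15 lies farthest left.

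Of the mesenchymal stromal surface markers, 5 of 11 other tested genes rose and 3 fell. The proteoglycan receptor gene Cspg4 and the integrin gene Itga5 rose to 10.96 ± 0.0348 and 76.6 ± 0.270 FPKM (limma adjusted p = 0.000541 and 0.00249), and the adhesion gene Vcam1 fell to 6.93 ± 0.3005 from 13.7 ± 0.845 (limma adjusted p = 8.30e-05). Lymph node stromal markers fell in 4 and rose in 2 of 7 tested genes. The BMP antagonist gene Grem1 rose from 14.7 ± 0.208 to 117 ± 0.102 FPKM (limma adjusted p = 1.50e-07), and the chemokine gene Ccl2 fell from 74.4 ± 3.09 to 18.95 ± 1.17 (limma adjusted p = 1.71e-06). Markers of other cell types were counted in the same way. Myofibroblast markers rose in 3 and fell in 3 of 10 tested genes and summed to 667 to 712 FPKM without and 719 to 749 with BMP4. Large parts of these sums moved in opposite directions. Tnc was at 17.3 ± 1.26 FPKM without and 116 ± 4.98 with BMP4, and Col8a1 at 104 ± 3.67 and 51.9 ± 0.857. Pericyte and smooth muscle markers rose in 2 and fell in 1 of 7, with sums of 88.2 to 90.4 and 106 to 109 FPKM, and 7 of the 14 were not analysed here. Endothelial markers rose in 2 (S1pr1 and Flt1, limma adjusted p = 0.000165 and 0.000611) and fell in 2 of 6, with sums of 90.2 to 96.7 and 62.2 to 66.5 FPKM, of which Cd34, also in the adventitial list, is the largest part. Leukocyte markers summed to 21.5 to 28.4 FPKM without and 19.8 to 23.1 with BMP4; 0 of 4 tested genes passed, and 11 of the 16 were not analysed here. Epithelial markers had 1 listed gene of 9, Krt14, at 0.178 ± 0.170 and 0.890 ± 0.165 FPKM. The part of these cell types in the differences of the 10 genes was not tested.

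For each of the 10 genes the 2 tested genes with the most similar pattern were found by the Euclidean distance of centred log2(FPKM + 1) values over the 6 samples. Since 2 groups make up the 6 samples, the measure mostly reflects the size of the difference between them. Nearest to Islr were Fmod (distance 0.14), a collagen-binding proteoglycan gene that went from 47.9 ± 1.11 to 182 ± 3.01 FPKM, and Smad9 (0.16), one of the BMP-activated SMAD genes, from 2.21 ± 0.179 to 12.3 ± 0.202 FPKM. Angptl4 was nearest to both Dpt (0.30) and Apod (0.29), and Apod was next for Dpt (0.43). Mest (0.39) and Tnnc1 (0.44) were nearest to Msln, and Myoc (0.32) and Pcolce2 (0.32) to Rarres1. Nearest to Gpx3 was Cygb (0.21), a globin gene of fibroblast-like cells, from 16.8 ± 1.49 to 39.1 ± 1.11 FPKM. For Mfap5, Pdgfra, Thy1 and Ly6a the nearest were Mvb12b (0.10), Top2b (0.05), Ap3s1 (0.08) and Ppp6c (0.18).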

How the data were processed

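RNA abundance was measured in 6 samples, 3 untreated and 3 given BMP4 for 48 h. Per the labels' protocols, polyadenylated RNA was made into strand-specific paired-end libraries. Per the submitters' processing notes, the build was GRCm38 and the tools included HISAT2, StringTie, cutadapt and FastQC. The sources used here give no versions, settings or annotation release. The authors deposited FPKM per gene and per transcript, per the file headers. The higher group mean was at least 0.502 FPKM for each listed gene, so genes low in both groups are not analysed here. Each file had 1 emptied line.

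Low values of 1110 single-transcript genes showed no steps of whole reads: 20.0% to 24.0% of the 100 lowest values per sample lay within 0.05 of a step, against 18.0% to 22.0% of random values, so depth is unknown. No pair of samples was identical.

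Genes with a mean of at least 1 FPKM were tested on log2(FPKM + 1) with limma 3.58.1 in R 4.3.3 (two-sided, variance trend, Benjamini-Hochberg adjustment over all 10932 genes, threshold 0.05), checked on simulated data. Log2 differences on this scale understate changes near 0. A ± value is the SD over 3 samples, and means of FPKM give the fold values. Exonic lengths and overlaps come from GENCODE M21, promoters from RefSeq (GRCm38.p6), and coordinates of genes from the deposited tables. The 10 genes and the 19 gene lists were chosen with earlier results of these data known, and members of a list were counted without the 10 genes. Named were all genes of the mesothelial, adventitial and family lists as needed, up to 4 genes by adjusted p of other lists, and the nearest genes; Gfm1, S100a4 and Col5a2 were named after their values were seen. Of the mesothelin relatives 0 of the 4 other genes had a value and of the lipocalins 0 were tested. Alternatives were another pseudocount, filter, scaling and variance model, a replicate block and leaving out each sample; the transcript with the highest mean in place of the gene value was added after seeing the data.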

Additional observations from a re-analysis of the deposited data

How the results depend on the processing

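The filters, variance models and replicate block leave the log2 differences of the 10 genes as they are by construction. Under the other alternatives 10 of their values moved by more than the replicate SD, each with the pseudocount of 0.1 or transcript values, and Apod moved farthest, from -2.35 to -4.25. Ly6a changed sign without BMP4 replicate 2, and with 1 sample left out it ranged from -0.0369 to 0.231. For the other named genes, 793 of 821 values kept their direction and side of the threshold, 18 lost the call and 7 gained it. Ackr3 changed sign when untreated replicate 1 or 2 or BMP4 replicate 3 was left out, at -0.00698, -0.0168 and -0.00199, and ranged up to 0.0779 with 1 sample left out, never past the threshold.

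Over all genes, 1487 were higher and 1559 lower. Leaving out 1 sample gave 985 to 1419 higher and 1051 to 1444 lower. The larger of the 2 directions changed without untreated replicate 1, with 1419 higher and 1344 lower. It also changed after rescaling to equal sums, with 1743 higher and 1383 lower. General fibroblast markers that rose were 3 to 5 without 1 sample and 3 with a replicate block, against 5, and mesothelial markers that rose were 1 to 2 without 1 sample and 1 with the filter of 5 FPKM, against 2, where fewer genes are tested. Of the neighbours within 100 kb, 1 rose and 3 fell with the replicate block, against 3 and 7, and 4 fell with the filter of 5 FPKM. With the replicate block 994 genes were higher and 1046 lower, and it ended the calls of Pdgfc, S100a4 and Col5a2 (limma adjusted p = 0.0630, 0.126 and 0.143). Same-numbered samples did not deviate together (r = -0.15, 0.05 and -0.22 across genes). That cannot settle whether they were handled together, and the labels do not say. Over all 19 lists together, 31 of the other tested genes rose and 41 fell. The depth behind each value is unknown, so the counting error could not be estimated, also for values near 0 such as those of Apod and Msln with BMP4.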
